A study of Homo sapiens with 26 samples.

Results

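A set of 40 genes that act in G2 phase and mitosis was followed in the human melanoma line SK-MEL-28 after activation of the integrated stress response (ISR). The 40 genes were chosen by function (cyclins, mitotic kinases, spindle and kinetochore genes) as rows named in the first column of both input count files, which hold 55353 gene rows. The treated cells had been kept in salubrinal for 72 h, and the other cells were untreated. Salubrinal keeps the translation factor eIF2α phosphorylated by inhibiting its phosphatase, which starts the ISR. Of the 26 samples, 2 were input RNA, 1 per treatment, and 24 were sucrose gradient fractions. Each treatment had 3 replicates of the 40S, 60S, 80S and polysome fractions, from lysates of cells given cycloheximide, which holds ribosomes on mRNA. The labels list cycloheximide (100 µg/mL for 12 min) for the input samples as well. Every title names SK-MEL-28, while the cell-line field holds 26 different numbered names, and the titles were followed.

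Entry into mitosis is driven by the kinase CDK1 bound to B-type cyclins, which CDC25 phosphatases switch on and the kinases PLK1 and Aurora A promote. The spindle checkpoint then holds back CDC20, the activator of the anaphase-promoting complex (APC/C), until every kinetochore is attached to the spindle, and cyclin B is destroyed after that. Most of these genes are transcribed in late S phase and G2 and silent in resting cells, and the switch acts through promoter elements called the cell-cycle genes homology region (CHR) and the CCAAT box, so their mRNAs are often read together as a sign of how much a culture divides.

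Promoters came from a RefSeq table of GRCh38.p14, which gives 250 bases before and 50 after each gene start. They were searched on both strands for TTTGAA, a form of the CHR, and for CCAAT. The table held 34 of the 40 genes and not AURKA, BUB3, TTK, BIRC5, TPX2 or UBE2C. TTTGAA was found in 25 of the 34 (73.5%), against 15.4% of all 27305 promoters of the table. It lay within 50 bases of the start in 20 (58.8%), against 4.67% of all promoters. CCAAT was found in 24 (70.6%), against 35.7% of all, and both motifs in 19 (55.9%), against 6.08%. The motifs shared letters in 2 of the 34. These are descriptions of letters in a window, with no test. Other forms of the CHR were not searched, so a gene without TTTGAA is not shown to lack a CHR.

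Promoters of 3 genes are shown, those held in the table among the highest and the lowest 2 genes by the ratio reported below, so that the motifs of genes at opposite ends can be compared. Each is the 250 bases before the start, read 5′ to 3′ along the gene, with CCAAT, its reverse complement ATTGG and TTTGAA in capitals. CCNB1 is on the plus strand at chr5:69166900-69167149, AURKB on the minus strand at chr17:8210226-8210475 and INCENP on the plus strand at chr11:62123761-62124010.
CCNB1: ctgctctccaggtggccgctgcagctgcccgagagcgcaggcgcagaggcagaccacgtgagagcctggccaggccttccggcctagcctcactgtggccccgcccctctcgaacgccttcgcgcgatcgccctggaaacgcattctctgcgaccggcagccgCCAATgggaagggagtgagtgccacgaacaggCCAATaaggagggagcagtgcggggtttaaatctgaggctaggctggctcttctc
AURKB: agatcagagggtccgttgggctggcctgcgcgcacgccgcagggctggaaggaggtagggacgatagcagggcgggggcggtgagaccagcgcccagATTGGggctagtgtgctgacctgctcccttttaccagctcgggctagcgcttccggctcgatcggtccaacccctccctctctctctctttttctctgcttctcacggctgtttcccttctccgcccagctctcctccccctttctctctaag
INCENP: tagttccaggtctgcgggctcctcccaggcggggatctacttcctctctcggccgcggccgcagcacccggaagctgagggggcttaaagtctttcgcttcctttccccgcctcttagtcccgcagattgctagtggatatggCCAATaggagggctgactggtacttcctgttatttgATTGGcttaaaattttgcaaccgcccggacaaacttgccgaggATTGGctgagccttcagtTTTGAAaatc
The CCNB1 sequence holds CCAAT at 87 and 55 bases before the start. AURKB holds it once, at 153 bases, in the reverse direction. INCENP holds CCAAT or its reverse at 107, 71 and 28 bases and TTTGAA at 10 bases before the start. Among the genes measured in the input, the median ratio was 0.02 (log2) over the 23 with TTTGAA and 0.05 over the 8 without.

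The input files held 10245548 counts on gene rows with salubrinal and 12068784 without. The row CT010467.1 took 12.8% of these with salubrinal and 56.7% without, so counts were scaled by trimmed means (TMM) and given as CPM, the scaled count per 1e+06. The input rows carry mouse-style symbols although the cells are human. Which reference they come from is unknown here. A low count on such a row is therefore no evidence of low expression, and levels are compared within a row and not between genes. With 1 library per treatment there was no replicate check and no test. Intervals of input ratios are exact binomial intervals (95%) for counting error alone. Of 8 melanocytic markers, 6 were measured in the input, with a summed level of 1396 CPM with salubrinal and 2771 CPM without. Pmel supplied 953 CPM of this with salubrinal and 1928 CPM without. Pmel, Mitf, Sox10 and Dct were at least 2-fold lower with salubrinal, while Tyr stood at -0.04 and S100b at 0.15 on the log2 scale. Mlana was at 0 in both libraries, and Tyrp1 had 0 counts with salubrinal and 5 without. Of 10 markers of other cell types only Krt18 reached 50 counts, at 22.3 CPM with salubrinal and 20.3 CPM without, and Cdh5, Col1a1 and Hbb-bs were at 0 in both. Krt14, a keratinocyte marker, had 20 counts with salubrinal and 3 without. The ISR genes Asns, Atf4, Ddit3, Trib3 and Chac1 were all at least 2-fold higher with salubrinal, by 1.82 to 3.20 on the log2 scale.

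The mitotic genes as a group stood at almost the same level in the salubrinal and the untreated input. Of the 40, 37 held at least 50 counts over both libraries and are called measured. Their median log2 ratio, salubrinal over untreated, was 0.05, against 0.02 over all 10614 measured rows. None of the 37 was at least 1.5-fold higher with salubrinal, a size that 11% of all measured rows reached. At least 1.5-fold lower were 2 of the 37, Aurkb and Incenp, against 12.1% of all rows. None was 2-fold apart in either direction, against 2.75% of rows higher and 3.8% lower. This rests on the prior of 2 counts: Incenp stood at -0.996 with it and at -1.004, just past 2-fold, with a prior of 0.5. Their summed level was 1738 CPM with salubrinal and 1735 CPM without. In bulk RNA, fewer cells in G2 and mitosis and less of these mRNAs per cell cannot be told apart. With library sizes alone in place of TMM, all rows shifted up by 0.93, the median of the 37 became 0.99, and relative to that shift again 0 were 1.5-fold higher and Aurkb and Incenp 1.5-fold lower.

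The ratios of the 37 ran from -0.996 to 0.46, with the middle 80% between -0.42 and 0.33, against -0.66 to 0.61 for all measured rows. The members had a median of 676 counts over both libraries and all measured rows 335, so counting error was smaller for the members. The counting interval lay above 0 for 9 members, a position that 25.1% of all rows held, and below 0 for 8, against 23%. For the other 20 it included 0, with a median half-width of 0.24 over the 37. A difference of less than about that size could not be told from counting error for a typical member at this depth. A larger one is not thereby an effect of treatment, because the spread between cultures is unknown.

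**Figure D1:**
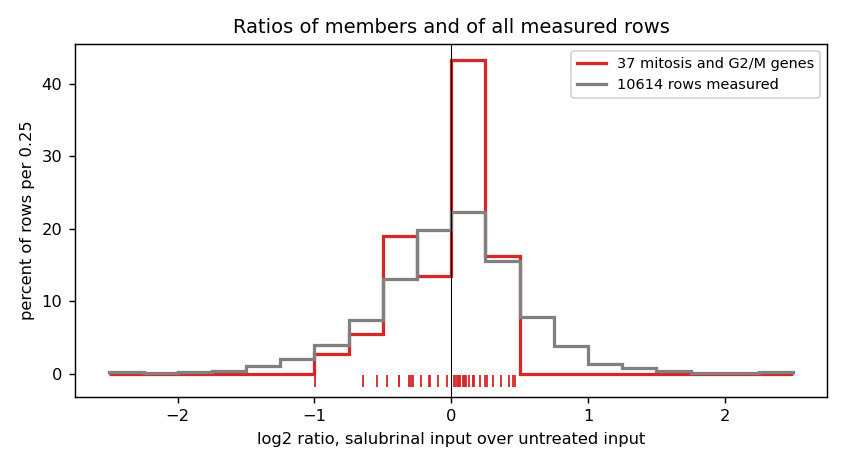
Distribution of log2 ratios of TMM-scaled counts, salubrinal input over untreated input, for the 37 measured mitosis and G2/M genes (red line, with a tick per gene) and for all 10614 measured rows (grey), as percent of rows per bin of 0.25, with ratios beyond the axis placed in the end bins. The red line lies between -0.996 and 0.46, while the grey line runs past it on both sides.

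Among CDK1, its cyclins and its phosphatases, Ccnb1 and Cdk1 were 2 of the 3 genes with the highest ratios of the 37. Ccnb1, which encodes cyclin B1, stood at 23.2 CPM with salubrinal (329 counts) and 16.8 CPM without (146 counts), a log2 ratio of 0.46 (interval 0.18 to 0.76). Cdk1, its kinase partner, had 20.1 CPM with salubrinal (285 counts) and 14.9 CPM without (130 counts). Its log2 ratio was 0.42 (0.12 to 0.74). Both intervals exclude 0 and both upper ends pass 1.5-fold. Ccnb2, for cyclin B2, had a ratio of 0.25 (0.05 to 0.46), and Ccna2, for the cyclin of S and G2 phase, one of 0.10 (-0.09 to 0.30). Cdc25b, the phosphatase that starts CDK1 activation, went the other way, with 16.2 CPM with salubrinal (230 counts) and 21.1 CPM without (184 counts), a ratio of -0.38 (-0.67 to -0.10). The difference in log2 ratio between Ccnb1 and Ccnb2, a value that does not depend on how the libraries are scaled, was 0.22 (-0.14 to 0.57, exact conditional odds-ratio interval), so the B-type cyclins were not told apart. This pair and those of the Aurora kinase and condensin genes below were chosen after the values were seen. Cdc25c, a related phosphatase gene, had 25 counts with salubrinal and 16 without, too few to be measured.

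Among the kinases of mitotic entry, Plk1 was lower with salubrinal, while the interval of Aurka included 0. Plk1, for polo-like kinase, had 30.1 CPM with salubrinal (427 counts) and 41.7 CPM without (363 counts). Its log2 ratio was -0.47 (-0.68 to -0.26). Aurka, for Aurora A, had a ratio of 0.16 (-0.08 to 0.40), and Tpx2, whose product activates Aurora A on the spindle, one of 0.16 (0.02 to 0.31).

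The APC/C partners stood apart in opposite directions. Ube2c, for an ubiquitin-conjugating enzyme of the APC/C, had 32.3 CPM with salubrinal (458 counts) and 25.03 CPM without (218 counts), a ratio of 0.36 (0.13 to 0.61). Cdc20, for the activator that the checkpoint restrains, had 47.2 CPM with salubrinal (670 counts) and 68.9 CPM without (600 counts), a ratio of -0.54 (-0.71 to -0.38). The difference between them, the only members of this role, was 0.91 (0.62 to 1.20).

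**Figure D2:**
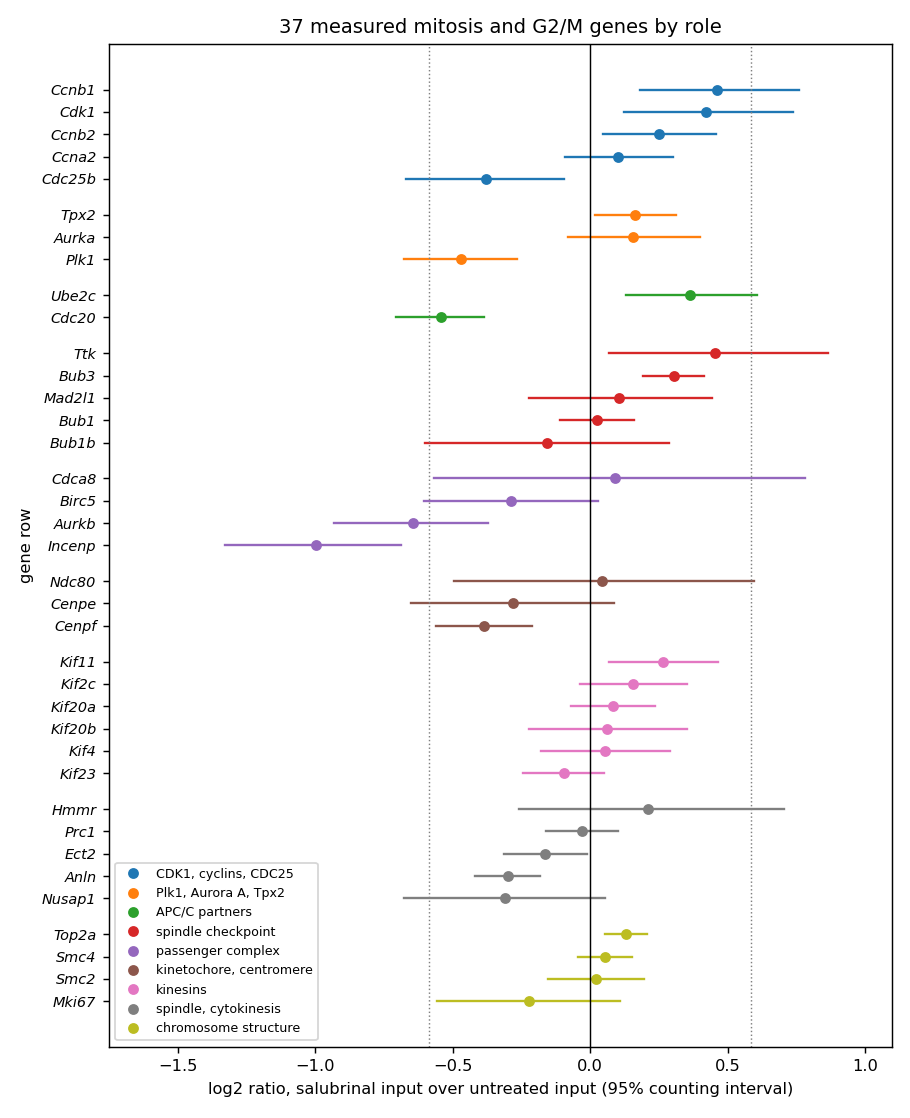
Log2 ratio of TMM-scaled counts, salubrinal input over untreated input (points), with the 95% counting interval (lines), for the 37 measured genes, coloured by role, with dotted lines at 1.5-fold. All points lie between the dotted lines except Aurkb at -0.64 and Incenp at -0.996.

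Of 5 spindle checkpoint genes, Ttk and Bub3 were higher with salubrinal by an interval above 0, and none had an interval below 0. Of all measured rows 25.1% had an interval above 0 and 23% one below. Whether these 5 genes differ from those shares was not tested. Ttk, for the kinase MPS1 that starts checkpoint signalling, had 12.3 CPM with salubrinal (175 counts) and 8.96 CPM without (78 counts), a ratio of 0.45 (0.07 to 0.87). Bub3, for an adaptor of checkpoint proteins at kinetochores, had 139 CPM with salubrinal and 113 CPM without, a ratio of 0.30 (0.19 to 0.42). Bub3 had 1974 counts with salubrinal and 981 without, so its interval is among the narrower ones. Mad2l1, whose product MAD2 binds CDC20, stood at 0.11, the kinase gene Bub1 at 0.02 and Bub1b, for BUBR1, at -0.16, all with intervals that include 0.

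The chromosomal passenger complex, which corrects faulty attachments and guides cytokinesis, held both members past 1.5-fold. Of all measured rows 12.1% were lower by that size, and whether the complex differs from other roles was not tested. Incenp, for its scaffold, had 10.6 CPM with salubrinal (150 counts) and 21.2 CPM without (185 counts), a log2 ratio of -0.996 (-1.33 to -0.69). Aurkb, for its kinase Aurora B, had 15.3 CPM with salubrinal (217 counts) and 23.996 CPM without (209 counts), a ratio of -0.64 (-0.93 to -0.37). In the salubrinal input Incenp was thus 1.99-fold and Aurkb 1.56-fold lower, with the prior of 2 counts. Birc5, for survivin, stood at -0.29 (-0.61 to 0.03). Cdca8, for borealin, stood at 0.09 (-0.57 to 0.78) from 54 counts with salubrinal and 31 without, and was the measured member with the fewest counts. The median of the complex was -0.47 over its 4 genes. The Aurora kinase genes Aurka and Aurkb differed by 0.81 (0.43 to 1.18).

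**Figure D3:**
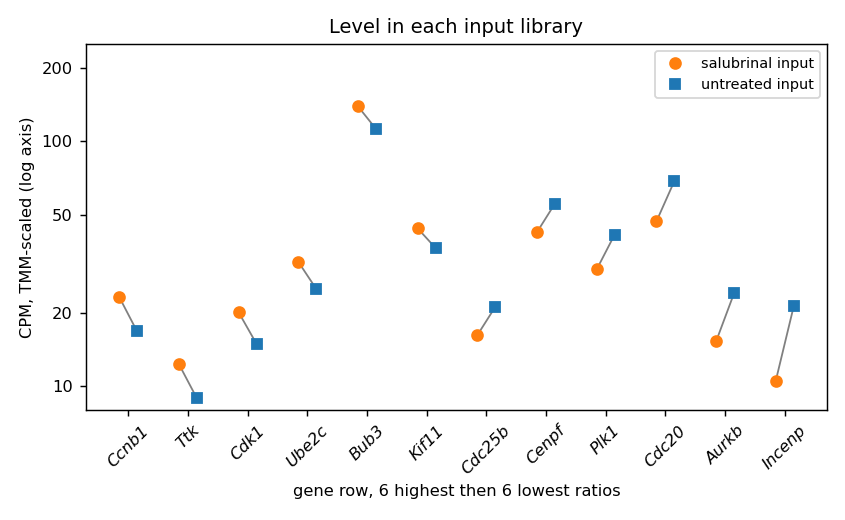
Level of each of the 12 genes with the highest and lowest ratios in the salubrinal input (circles, left) and the untreated input (squares, right), in TMM-scaled CPM on a log axis, with 1 library per treatment and no error bar. The circle is above the square for Ccnb1, Ttk, Cdk1, Ube2c, Bub3 and Kif11 and below it for Cdc25b, Cenpf, Plk1, Cdc20, Aurkb and Incenp.

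Kinetochore genes were measured for 3 of 5 members. Cenpf, for a large kinetochore protein of G2 and mitosis, had 42.7 CPM with salubrinal (606 counts) and 55.8 CPM without (486 counts), a ratio of -0.39 (-0.56 to -0.21). Cenpe, for a kinetochore motor, stood at -0.28 (-0.65 to 0.09) and Ndc80, for a subunit of the microtubule-binding complex, at 0.04 (-0.49 to 0.60). Nuf2, for a partner of NDC80, had 25 counts with salubrinal and 10 without, and Cenpa, for the histone variant that marks centromeres, 1 in each library. Neither is given a ratio here.

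The 6 kinesin genes lay between -0.10 and 0.26. Kif11, for the motor that pushes spindle poles apart, was the highest, with 44.2 CPM with salubrinal (627 counts) and 36.7 CPM without (320 counts), a ratio of 0.26 (0.07 to 0.46). Intervals of the other kinesins all included 0: Kif2c, a microtubule depolymerase, stood at 0.16, Kif20a at 0.08, Kif20b at 0.06, the chromosome-bound motor Kif4 at 0.05 and Kif23, a motor of the central spindle, at -0.10.

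Genes of the late spindle and of cytokinesis had a median of -0.16 over 5 members. Anln, for anillin of the contractile ring, had 94.3 CPM with salubrinal and 116 CPM without, a ratio of -0.30 (-0.42 to -0.18). Ect2, for the activator of RhoA at the cleavage furrow, stood at -0.16 (-0.32 to -0.01), Prc1, which bundles microtubules of the midzone, at -0.03, and Nusap1, for a spindle protein, at -0.31 (-0.68 to 0.06). Hmmr, for another spindle protein, stood at 0.21 (-0.26 to 0.71).

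Genes of chromosome structure were near 0. Top2a, for the topoisomerase that untangles sister DNA, had the most counts of the set, 3823 with salubrinal and 2143 without, and a ratio of 0.13 (0.05 to 0.21). Smc4 and Smc2, for the core of condensin, stood at 0.05 and 0.02, and differed by 0.03 (-0.17 to 0.23). Mki67, for the proliferation marker Ki-67, had 13.0 CPM with salubrinal and 15.2 CPM without, a ratio of -0.22 (-0.56 to 0.11).

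Other mitosis genes, listed by function, had a centre close to that of the 37. Of 117 measured genes in 7 lists, 9 were higher with salubrinal by 1.5-fold or more and 11 were lower by that size, with a median of 0.07. Over all measured rows those sizes were reached by 11% and 12.1%, so these counts do not stand above the background. Condensin and cohesin genes had 0 of 14 past 1.5-fold, with a range from Ncaph2 at -0.29 to Stag1 at 0.38. Among 12 genes of CDK1 control, 2 were higher and 2 lower by that size. Cdk7, for the kinase that activates CDKs, was highest at 0.97 (0.58 to 1.41), and Pkmyt1, for a kinase that inhibits CDK1, was lowest at -2.02 (-2.89 to -1.42) from 23 counts with salubrinal and 62 without. Of 12 transcription regulators of the mitotic genes, 0 were higher and 2 lower. E2f5 was highest at 0.54, and Mybl2, for the activator B-MYB, was lowest at -0.94 (-1.20 to -0.69). Foxm1, for the other main activator, named after its value was seen, stood at -0.56 (-0.79 to -0.34). The 12 regulators had a median of 0.04, with 6 above 0 and 6 below, and the 37 mitotic genes one of 0.05.

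The counts in the next lists stand beside 11% of all measured rows higher and 12.1% lower by 1.5-fold. In the list of APC/C and separase genes, 2 of 14 were higher and 3 lower by that size. They ran from Anapc2 at -0.996 to Anapc4 at 0.67, which both encode subunits of the APC/C. Of 23 further kinetochore and checkpoint genes 4 were higher and 2 lower, with the ends at Ska1 (0.84, interval -0.02 to 1.94) and Cenpb (-1.005). Of 27 further spindle and kinesin genes 0 were higher and 2 lower, with Kif18b at -1.11 and Tubgcp3 at 0.51. Of 15 genes of cytokinesis and the midbody 1 was higher, Ckap4 at 0.62, which is better known as a membrane protein of the endoplasmic reticulum, and 0 were lower, with Cit, for citron kinase, lowest at -0.53.

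**Figure D4:**
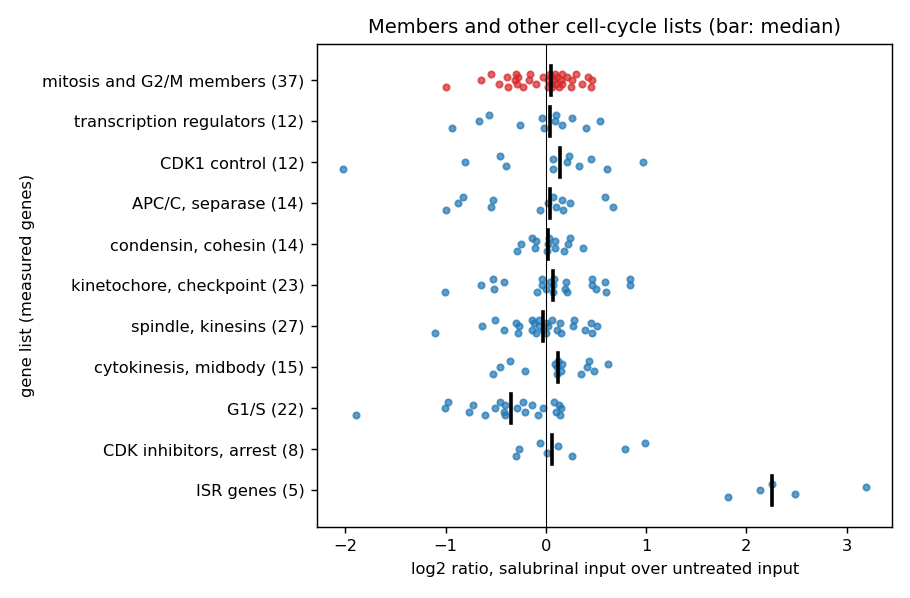
Log2 ratio, salubrinal input over untreated input, of every measured gene in the mitosis and G2/M set (red) and in 10 other lists (blue), with the median of each list as a black bar and the number of measured genes in brackets. The bars of the mitosis lists lie between -0.03 and 0.15, that of the G1/S list at -0.35 and that of 5 ISR genes at 2.26.

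The gradient fractions held too few counts to compare these genes between treatments. Fraction files held 873 to 23714 counts outside ribosomal RNA rows. There the 40S, 60S and 80S files matched a polysome file of the same treatment, with a chi-square per degree of freedom of 0.473 to 1.08, against 1.29 to 17.8 for the polysome files of other replicates. The untreated 40S files titled replicates 1 and 2 matched replicates 2 and 1. By these values the 4 fractions of a library had the same composition outside ribosomal RNA rows, within sampling noise. There the polysome files were therefore not told apart from the 40S, 60S and 80S files. The files were summed on this basis into 6 libraries, 3 per treatment. Whether replicates were separate cultures is not stated, and the p-values given below cover only the spread among these samples, which may be technical. The human-named rows of the 40 genes, with KIF4A for Kif4, held 73 counts in all 24 files, 11 with salubrinal and 62 without, or 0.0251% of counts outside ribosomal RNA.

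By library, member rows held 4, 0 and 7 counts with salubrinal, against 25, 7 and 30 counts in the untreated libraries. As a share of counts outside ribosomal RNA this was 0.0394%, 0% and 0.00951% with salubrinal, against 0.0289%, 0.0309% and 0.0320% without. The 0 counts in salubrinal library 2, of 3768, allow a share of up to 0.0979% (exact Poisson). The interval in salubrinal library 1 runs from 0.0107 to 0.101%, so the untreated shares lie within both. Salubrinal library 3, at 0.00951% (0.00382 to 0.0196%), was below the 3 untreated values, but its interval overlaps that of untreated library 1 (0.0187 to 0.0427%) and of untreated library 2 (0.0124 to 0.0637%). The interval of salubrinal library 3 lay wholly below that of untreated library 3 (0.0216 to 0.0457%). Overlap of intervals does not show that shares are equal, and the shares were not tested. These limits cover counting error only.

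Counts fell on 19 of the 40 rows, and 21 held none, among them CCNB1, CDK1, CDC20, AURKB, BUB3 and UBE2C. CCNA2 had the most, with 2, 0 and 3 counts in the salubrinal libraries and 7, 2 and 13 in the untreated ones. PRC1 had 1, 0 and 2 counts with salubrinal and 5, 0 and 5 without. No other member had more than 4 counts over all files. None passed the low-count filter of the polysome comparison, in which edgeR's quasi-likelihood test called 9 of 241 rows (3.73%), or of the summed comparison, in which it called 52 of 913 (5.7%). The 40 genes were therefore not tested in the gradient, and no value of their ribosome binding is given here.

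The rows PRC1-AS1, KIAA0895 and EXOSC9, which overlap a mitotic gene, held more counts than that gene's own row. In the annotation 28 genes overlap 19 of the 40, without regard to strand, and 13 of the 28 have a row in the files. PRC1-AS1, an antisense transcript of PRC1, had 5, 1 and 46 counts in the salubrinal libraries, against 70, 24 and 106 in the untreated libraries. After scaling this was 6.96 ± 2.58 CPM with salubrinal and 12.9 ± 2.45 CPM without (SD, n = 3). Every salubrinal library lay below every untreated library, as for 18.6% of all 913 tested rows (5.91% lay wholly above), and the log2 fold change of -0.59 ± 0.37 (SE) did not pass (edgeR adjusted p = 0.42). KIAA0895, which overlaps ANLN, had 3, 0 and 22 counts with salubrinal, against 62, 11 and 64 without. Its levels were 3.01 ± 2.63 CPM with salubrinal and 8.06 ± 1.23 CPM without, also with no overlap between groups, the position held by those 18.6% of rows, and its log2 fold change was -1.04 ± 0.41 (edgeR adjusted p = 0.101). EXOSC9, which overlaps CCNA2, had 1, 0 and 10 counts with salubrinal and 23, 9 and 11 without, a log2 fold change of -0.58 ± 0.53 (edgeR adjusted p = 0.629). The strand setting of the counting is not given, so reads from the mitotic gene and from its overlapping partner cannot be told apart. TMM factors were 0.407, 0.0908 and 3.00 in the salubrinal libraries and 2.71, 0.640 and 5.19 in the untreated ones. With library sizes alone the log2 fold changes were -1.87 ± 2.09 for PRC1-AS1, -2.31 ± 2.14 for KIAA0895 and -1.64 ± 2.12 for EXOSC9 (SE), so their size depends on the scaling, and none passed. With RLE size factors they were -0.64, -1.10 and -0.64.

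**Figure D5:**
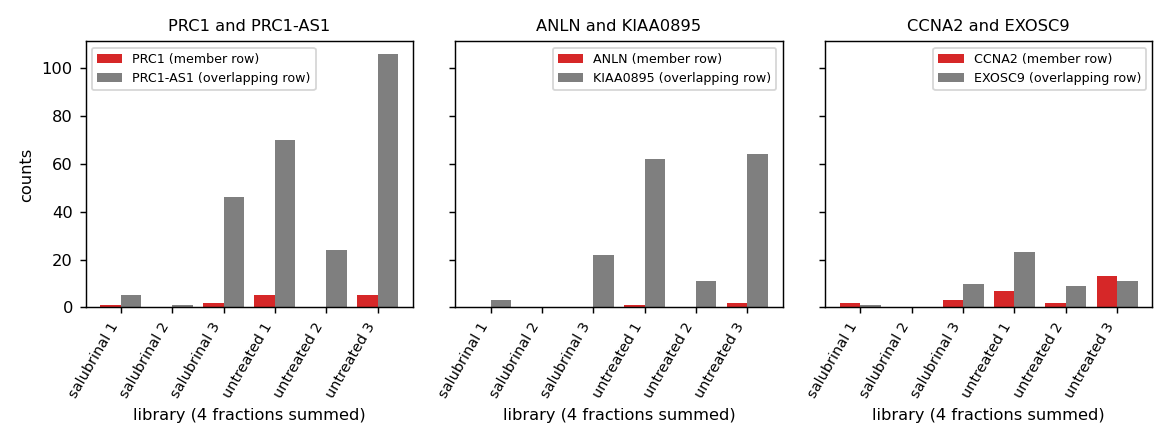
Counts on the rows PRC1, ANLN and CCNA2 (red bars) and on the row overlapping each (grey bars) in the 3 salubrinal and the 3 untreated libraries, each the sum of 4 gradient files. Red bars reach at most 13 counts, while PRC1-AS1 reaches 106.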

How the data were processed

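The deposited files hold raw counts per gene row. HTSeq 0.5.3p3 and STAR, build hg19, SAMtools 0.1.19.24, DESeq and FastQC 0.11.5 are named in the submitters' processing notes. The input rows carry mouse-style symbols, so hg19 is not taken here as their reference. Libraries came from a stranded total RNA kit, per the labels' protocols. Rows that name no gene were left out; gene rows held 7.06% of counts in the salubrinal input, 5.94% in the untreated input and 4.72 to 5.79% in fraction files.

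Input ratios are on the log2 scale, after TMM scaling and a prior of 2 counts, with exact conditional binomial intervals. Differences between genes carry exact conditional odds-ratio intervals. Fraction comparisons used edgeR 4.0.16 in R 4.3.3 (filterByExpr, TMM, robust quasi-likelihood test, Benjamini-Hochberg threshold 0.05). They were also run on simulated data, which does not show how the test behaves on libraries this shallow and uneven. SE is the log2 fold change over the normal deviate of its p. Fraction files were summed by lowest chi-square.

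The members and lists were chosen with earlier results of these data known. Values in both libraries were to be given for the 6 highest and 6 lowest members with at least 200 counts and for any member with an interval wholly past 1.5-fold, and the highest and lowest gene named per other list. RefSeq (GRCh38.p14) gave gene overlaps and promoters. Alternatives were other scalings, prior count and count minimums for the input, and for the fractions DESeq2 1.42.0, RLE, library sizes, no filter, no ribosomal RNA rows, a replicate block, files as titled and leaving out each replicate.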

Additional observations from a re-analysis of the deposited data

How the results depend on the processing

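In the input, 6 of 7 alternatives kept the count of members at least 1.5-fold higher (0), the count at least 1.5-fold lower (2) and the median of the set. The exception was library sizes alone, by which 31 members were 1.5-fold higher, 0 were 1.5-fold lower and the median was 0.99, with all rows shifted by 0.93. Under it Cdc25b (0.55), Cenpf (0.55), Plk1 (0.47), Cdc20 (0.39) and Aurkb (0.29) turned positive while staying below that shift. The row CT010467.1, with 12.8% and 56.7% of gene-row counts with and without salubrinal, enters that scaling. In the fractions member rows were tested with no filter only, 10 in polysome and 19 in the summed libraries; edgeR called 0, with 0 at an unadjusted p under 0.05. All other alternatives left 0 member rows to test, so they say nothing about these genes. With the replicate block this was so too, and the calls over all rows were 4 in polysome, against 9, and 24 in the summed libraries, against 52. Deviations of same-numbered libraries correlated at r = 0.02, 0.14 and 0.24 over 865 rows. Without such values for differently numbered libraries, these cannot decide whether equal numbers mark pairs. The main comparisons did not treat them as pairs. Over all rows the polysome count was 20 with DESeq2, 26 without ribosomal RNA rows, 0 with library sizes alone (0 at an unadjusted p under 0.05), 0 with no filter (153) and 0 to 39 when leaving out a replicate. The zeros came without untreated replicate 1 (22) and replicate 3 (28), all with edgeR. The summed count was 91 without ribosomal RNA rows, 0 with library sizes alone (0), 4 with no filter, 89 with files as titled and 8 to 117 when leaving out a replicate. In the summed libraries PRC1-AS1 had log2 fold changes of -1.87 to -0.49 over 12 alternatives (adjusted p 0.315 to 0.862), KIAA0895 of -2.31 to -0.97 over 12 (0.0614 to 0.862) and EXOSC9 of -1.64 to -0.17 over 9 (0.578 to 0.961). The lowest came with library sizes alone. Without salubrinal replicate 3 the values were -0.94, -1.35 and -1.28, without untreated replicate 3 EXOSC9 had -1.10, and its -0.17 came with the replicate block. The causes were not tested. Single members rest on 1 library per treatment, so the spread between cultures is unknown. For a typical member, a difference below about 0.24 on the log2 scale cannot be told from counting error.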

Other observations

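Genes of entry into S phase (G1/S) had a lower centre than the mitotic genes in the input. Of 22 measured G1/S genes, 0 were higher with salubrinal by 1.5-fold or more and 6 were lower by that size, against 11% and 12.1% of all measured rows, with a median of -0.35, against 0.05 for the 37 mitotic genes, and with 1 library per treatment the difference was not tested. Cdt1, for a factor that licenses replication origins, was lowest at -1.89 from 14 counts with salubrinal and 36 without, and Cdc6, for another licensing factor, was highest at 0.15. Of 16 genes of CDK inhibition and growth arrest, 8 were measured, with 2 higher and 0 lower by that size, against the same 11% and 12.1%. Gadd45a, a stress gene of growth arrest, had 16.1 CPM with salubrinal and 8.04 CPM without, or 0.99 on the log2 scale, and Sesn1 was lowest at -0.30. Cdkn1a, for the inhibitor p21, was at 0 counts in both libraries. As the input rows carry mouse-style symbols, this is no evidence that its mRNA was absent.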
